A study of Homo sapiens with 4 samples.

Results

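Matrix metalloproteinases (MMPs) and their tissue inhibitors (TIMPs) were examined as a set of 10 genes, read by 13 probes of a bead chip array that holds 48803 probes in all. The members were MMP1, MMP2, MMP3, MMP7, MMP9, MMP14, MMP15, TIMP1, TIMP2 and TIMP3, and every probe that the array's probe-to-gene table assigns to 1 of these symbols was taken, out of 18665 genes named there. MIA PaCa-2, a human line established from a carcinoma of the pancreas, was either left untreated or given the inflammatory cytokine IL-1β at 2 ng/ml for 36 h. Each group held 2 samples with 1 array each, all of the same line grown in medium with serum. Nothing in the labels ties the samples to separate cultures, and p-values therefore cover only the spread among these 4 arrays, part or all of which may be technical.

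MMPs are zinc-dependent endopeptidases that are made as inactive precursors and cleave components of the extracellular matrix. Collagenases, gelatinases, stromelysins and matrilysins are secreted, whereas membrane-type MMPs are held at the cell surface. TIMPs bind the active site of MMPs and block it, and TIMP2 also takes part, together with MMP14, in the activation of the MMP2 precursor at the cell surface. IL-1 is known to raise MMP1 and MMP3 in fibroblasts and chondrocytes, where AP-1 and NF-κB factors act on the genes, and MMPs are studied in pancreatic carcinoma for their part in invasion.

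Promoter sequences from RefSeq (build GRCh38.p14) were at hand for 5 of the 10 members, MMP7, MMP14, MMP15, TIMP1 and TIMP3. The 120 bases before the annotated start are shown for TIMP1, detected on every array, for MMP15, detected with IL-1β and not in the controls, and for MMP7, detected on no array, because IL-1 is known to act on this family through AP-1. Capitals mark the motifs that were searched for on both strands: TGANTCA (AP-1), TGAGTAA (an AP-1 variant, added after the TIMP1 promoter had been seen), GGGCGG (Sp1), AGGAAG (PEA3, an Ets factor) and the NF-κB consensus. Lower case marks all other bases, and none of the matches shown overlaps another. TATAAA was also searched for and is left in lower case.
TIMP1, chrX:47582316-47582435, plus strand: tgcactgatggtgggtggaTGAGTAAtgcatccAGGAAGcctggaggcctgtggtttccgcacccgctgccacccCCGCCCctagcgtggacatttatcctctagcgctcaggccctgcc
MMP15, chr16:58025634-58025753, plus strand: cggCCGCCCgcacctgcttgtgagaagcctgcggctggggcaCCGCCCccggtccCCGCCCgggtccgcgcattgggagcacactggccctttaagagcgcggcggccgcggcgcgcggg
MMP7, chr11:102530748-102530867, minus strand: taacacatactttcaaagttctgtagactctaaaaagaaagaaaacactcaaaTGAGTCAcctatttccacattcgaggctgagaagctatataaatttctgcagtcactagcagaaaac

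Within 250 bases before the start, the motif TGANTCA was found in MMP7 alone among these 5 members, beginning 67 bases upstream, and it occurs in 6.57% of all 35116 promoters of that length. The variant TGAGTAA was found in TIMP1 alone, beginning 101 bases upstream, and occurs in 2.21% of all promoters. It was added after the TIMP1 promoter had been seen, so that its match there is no test. AGGAAG was found in TIMP1, beginning 87 bases upstream, and at 2 places in MMP7, 169 and 145 bases upstream and so outside the stretch shown, against 28.7% of all promoters. GGGCGG was found 5 times in MMP15, 5 times in TIMP3, 2 times in TIMP1 and 1 time in MMP14, and occurs in 42.6% of all promoters. The NF-κB consensus was not found in any of the 5 windows, and occurs in 5.21% of all promoters. TATAAA was found in MMP7 alone, beginning 30 bases upstream, and occurs in 10.7% of all promoters. These matches describe the letters of these windows, and binding of factors was not measured.

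The arrays gave a raw intensity per probe, in arbitrary units, and a detection p, which compares the probe with the chip's background and is small for a probe above it. A probe was called detected at a detection p under 0.01. On the 4 arrays, 12740 to 13157 probes were detected, or 26.1% to 27% of all probes, and the raw intensity averaged 527 and 549 in the controls and 482 and 449 with IL-1β. The lowest raw intensity of any detected probe was 214 and 234 in the controls and 207 and 190 with IL-1β. Of the epithelial genes used to check the line, KRT8, KRT18 and KRT19 were detected, as was the mesenchymal filament gene VIM, while EPCAM and CDH1 were not detected on any array. Of 7 acinar enzyme genes, 0 were detected.

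Detection divided the family. Of the 13 member probes, 4 were detected on at least 2 arrays, the filter for testing, which 26.9% of all probes passed. These 4 were both bright probes of TIMP2, the probe of TIMP1 and the probe of MMP15. The other 9 probes, which read MMP1, MMP2, MMP3, MMP7, MMP9, MMP14, TIMP3 and a further position of TIMP2, were not detected on any array, with raw intensities between 136 and 194. Thus 7 of the 10 genes had no detected probe, 6 of them MMPs. A probe that is not detected has only an upper bound, and it does not show that the transcript was absent. Brightness also depends on the probe's sequence, so that intensities of different probes do not rank the transcripts.

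**Figure D1:**
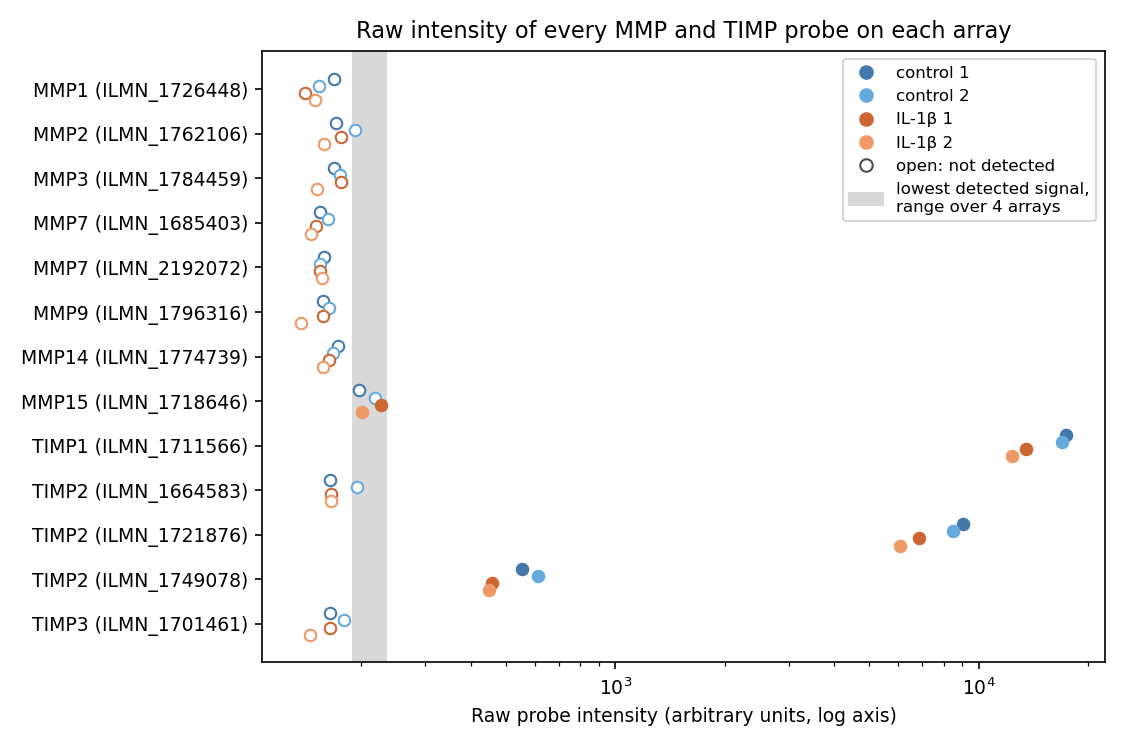
Raw intensity (arbitrary units, log axis) of the 13 MMP and TIMP probes, with 1 circle per array in the colour of its sample; filled circles are detected and open circles are not, and the grey band spans the lowest detected signal of the 4 arrays, 190 to 234. The TIMP1 probe and 2 TIMP2 probes lie to the right of the band on every array, the MMP15 probe lies within it, and the other 9 probes are open throughout.

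Among the secreted MMPs, the interstitial collagenase MMP1 (probe ILMN_1726448) had raw intensities of 168 and 153 in the controls and 140 and 149 with IL-1β. Its detection p ranged from 0.152 to 0.972. The 4 values therefore lay at background in both groups, and the groups overlapped after normalization.

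MMP2, a gelatinase (probe ILMN_1762106), had raw intensities of 170 and 192 in the controls and 176 and 158 with IL-1β. Its lowest detection p was 0.054, on control array 2, short of the threshold. The other gelatinase, MMP9 (probe ILMN_1796316), had 156 and 162 in the controls and 157 and 136 with IL-1β, and its detection p was 0.487 or higher on every array. Neither gelatinase was thus measured above background with or without the cytokine.

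MMP3, stromelysin 1, which cleaves proteoglycans and activates other MMPs (probe ILMN_1784459), had raw intensities of 168 and 174 in the controls and 176 and 151 with IL-1β. MMP7, matrilysin, is the MMP best known from epithelial cells and was read by 2 probes. Its probe ILMN_1685403 had 154 and 162 in the controls and 150 and 145 with IL-1β. Its probe ILMN_2192072 had 158 and 154 against 154 and 156. Both MMP7 probes lay at background on all 4 arrays, with detection p of 0.227 or higher, and the groups overlapped for both after normalization.

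MMP14, the membrane-type MMP that activates the MMP2 precursor (probe ILMN_1774739), had raw intensities of 172 and 167 in the controls and 163 and 156 with IL-1β, with detection p between 0.0949 and 0.433. TIMP3, the inhibitor that is bound to the matrix and also blocks several ADAM proteases (probe ILMN_1701461), had 164 and 179 in the controls and 164 and 144 with IL-1β. After normalization both IL-1β arrays of TIMP3 lay below both controls (4.93 and 5.05 in controls, 4.89 and 4.72 with IL-1β, on the log2 scale). All 4 of these TIMP3 values were at background, so that their order is no measured change.

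Of the 36 values of these 9 undetected probes, 1 had a detection p under 0.05. It belonged to the third TIMP2 probe on control array 2. When all 48803 probes were tested without the filter, the log2 differences of the 9 probes (IL-1β minus control) lay between -0.18 and 0.13, with standard errors of 0.12 to 0.19 and adjusted p of 0.744 or higher in limma. A change of a transcript from one level below the detection limit to another could not be seen in these arrays.

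IL-1β-treated and untreated cells were compared on log2 intensities after background correction and quantile normalization, with limma and p-values adjusted over all 13152 tested probes. No member passed an adjusted p of 0.05, and of all tested probes 0% passed. At an unadjusted p under 0.05 stood 1 of the 4 member probes, that of MMP15, against 18.5% of all tested probes. The groups did not overlap for any of the 4 probes, which was also so for 50.7% of all tested probes. Of these, 3 member probes were lower with IL-1β, beside 25.2% of all tested probes, and 1 was higher, beside 25.5%. The MMP15 probe passed the filter only through the group in which it was higher, so that the count over the 4 carries no weight of its own.

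MMP15, a second membrane-type MMP, was the only MMP member detected on any array. Its raw intensities were 197 and 218 in the controls and 226 and 200.5 with IL-1β, so that the raw values of the groups overlapped. Its detection p was 0.0211 and 0.0158 in the controls, above the threshold, and 0.00791 on both IL-1β arrays, below it.

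After background correction and normalization, MMP15 had log2 intensities of 5.76 and 5.87 in the controls and 6.46 and 6.28 with IL-1β, and the groups no longer overlapped. The means were 5.81 ± 0.08 and 6.37 ± 0.13 (SD, n = 2 each), a log2 difference of 0.56 ± 0.11 (SE; 95% confidence interval 0.28 to 0.84), with adjusted p = 0.114 in limma. The probe passed the filter only through the IL-1β arrays, in which it was higher, so that this interval and p-value lend no support. Since the probe was not detected in the controls, its ratio is given as a bound. That bound was 1.17-fold, IL-1β over control, on the normalized scale. It sets the IL-1β mean against the lowest detected signal of the control arrays, at a mean of 6.14. The bound includes no sampling error and holds for this processing only, so that a minimum rise is not established.

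The MMP15 difference depended on the subtraction of background. In the deposited series matrix values, from which the authors had subtracted a constant per array of 158 and 167 for the controls and 159 and 148 for the IL-1β arrays, MMP15 stood at 34.0 and 43.1 in the controls and 66.8 and 55.9 with IL-1β. Without background correction, and with quantile normalization kept, the log2 difference was 0.18, and in the raw intensities it was 0.04. In those raw intensities the median of all tested probes stood at -0.25. Uncorrected and raw values still hold the background, which shrinks the log2 differences of probes near it. The values 0.18 and 0.04 are therefore not on the scale of the corrected difference. The constant was largest on control array 2, which also had the higher of the control raw values.

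TIMP1, a secreted inhibitor of most MMPs that is known to respond to cytokines and AP-1, was bright on every array. The raw intensities of probe ILMN_1711566 were 17439 and 16907 in the controls and 13459 and 12315 with IL-1β. Both IL-1β arrays lay below both controls. In RNA from whole cultures, less RNA per cell and fewer cells that make it cannot be told apart. In raw log2 values the difference was -0.42, while the median of all tested probes differed by -0.25 in the same raw values.

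After normalization, TIMP1 stood at 14.02 and 13.92 in the controls and 13.76 and 13.73 with IL-1β. The nearest arrays of the groups were 0.16 apart, and arrays of the same group were 0.09 and 0.04 apart. The log2 difference was -0.22 ± 0.10 (SE; 95% confidence interval -0.46 to 0.01), with adjusted p = 0.292 in limma. TIMP1 was thus 1.17-fold lower with an interval from 0.99 to 1.38, and 15.5% of all tested probes had a difference as low or lower.

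TIMP1 was the only member in the tables in which the authors listed selected probes and genes. In the authors' deposited table of averages it stood at 16029 in controls and 13885 with IL-1β, a ratio of 0.866. In the authors' deposited score table it had a score of -15.7, and its rank by size was 1270 of 1440 scores, whose sizes ran from 13 to 340. No formula for that score is stated in the sources used here.

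TIMP2, the inhibitor that also bridges MMP14 and the MMP2 precursor, was read by 3 probes. The brightest, ILMN_1721876, had raw intensities of 9033 and 8492 in the controls and 6842 and 6057 with IL-1β. On the normalized log2 scale these were 13.01 and 12.86 against 12.83 and 12.74, so that the groups were separated by 0.03 while the controls were 0.15 apart. The difference was -0.15 ± 0.11 (adjusted p = 0.496 in limma), or 1.11-fold lower with a 95% confidence interval from 0.926 to 1.33.

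The second TIMP2 probe, ILMN_1749078, had raw intensities of 554 and 613 in the controls and 457 and 449 with IL-1β. Its normalized log2 values were 8.58 and 8.62 against 8.40 and 8.55. The difference was -0.13 ± 0.10 (adjusted p = 0.562 in limma), or 1.09-fold lower (0.915 to 1.3). Both detected TIMP2 probes thus gave a difference of similar size, no larger than the wider gap between arrays of the same group. For ILMN_1721876 the controls were 0.15 apart and the IL-1β arrays 0.09. For ILMN_1749078 these gaps were 0.04 and 0.15, so that each difference exceeded the narrower gap.

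The third TIMP2 probe, ILMN_1664583, had 164 and 194 in the controls and 164 and 165 with IL-1β and was not detected. The probe-to-gene table gives the same transcript for all 3 TIMP2 probes. The sequences of the probes were not used here, so that the position each one reads is not stated.

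**Figure D2:**
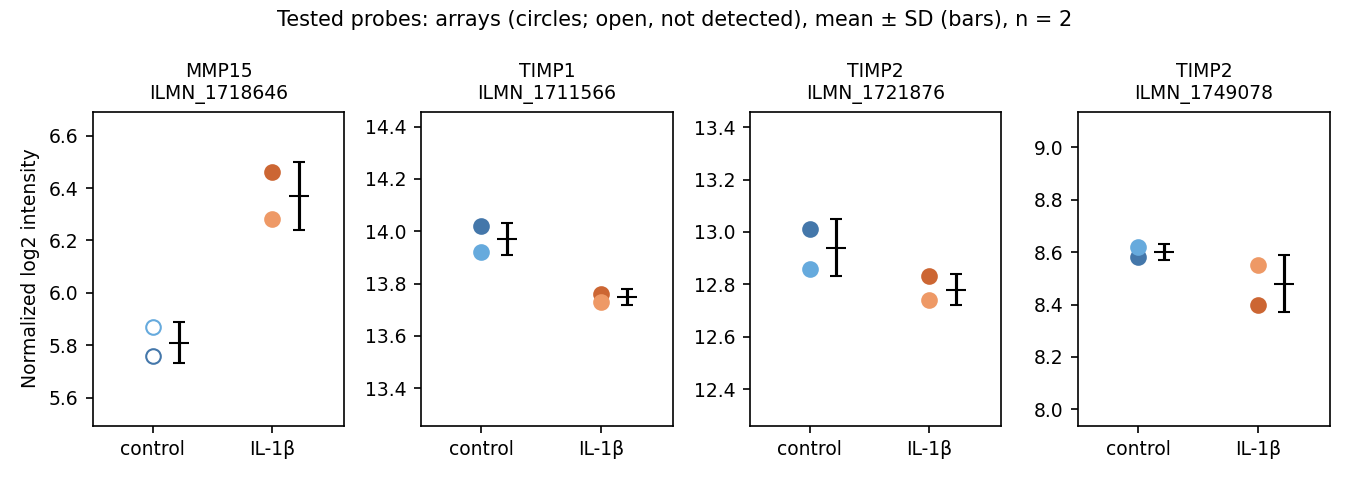
Normalized log2 intensity of the 4 tested probes in the 2 control and 2 IL-1β arrays, as circles (open where not detected), with the mean and SD of each group as bars; every panel spans the same range of 1.2 log2 units. MMP15 lies higher with IL-1β by 0.56, and TIMP1 and both TIMP2 probes lie lower by 0.13 to 0.22, with gaps between the groups of 0.16 for TIMP1 and 0.03 for each TIMP2 probe.

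Over the 4 tested probes the median log2 difference was -0.14, beside -0.001 over all tested probes. These 4 probes read 3 genes, and the median falls between the values of both TIMP2 probes, so that it describes no shift of the family. The TIMP1 and TIMP2 values lay within the bulk of all probes, and that of MMP15 is measured against controls not above background, so that its place among all probes is not given.

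**Figure D3:**
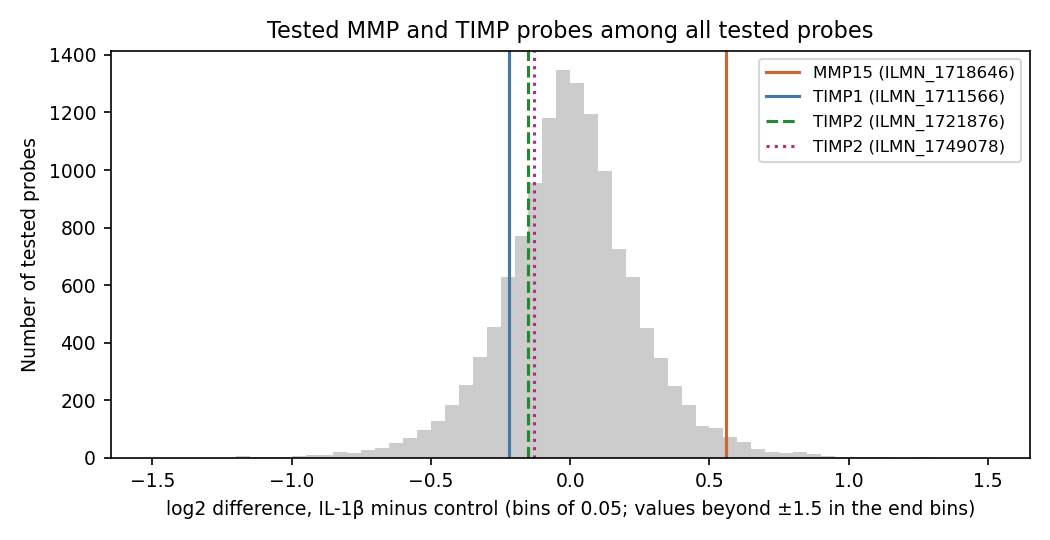
Histogram of the log2 difference (IL-1β minus control) of all 13152 tested probes in bins of 0.05, with lines at the values of the 4 member probes. The lines of TIMP1 (-0.22) and TIMP2 (-0.15 and -0.13) stand within the main body of the distribution, and the line of MMP15 (0.56) farther right, at a value measured against controls that were not detected.

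The direction of each tested member was the same under every other setting that gave a value, and except for the raw intensities none of these brought a member past an adjusted p of 0.05. The log2 difference of TIMP1 ranged from -0.31 to -0.08, and those of the TIMP2 probes from -0.34 to -0.08 and from -0.36 to -0.05. That of MMP15 ranged from 0.18 to 0.68. These ranges leave out the raw intensities, which gave -0.42 for TIMP1, -0.44 and -0.37 for TIMP2 and 0.04 for MMP15. The median of all tested probes stood at -0.25 in the raw intensities. Median scaling over all probes, under which the median tested probe stood at -0.22, gave the lowest values of the TIMPs. Relative to the median of all tested probes in each setting, TIMP1 stayed between -0.27 and -0.07.

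**Figure D4:**
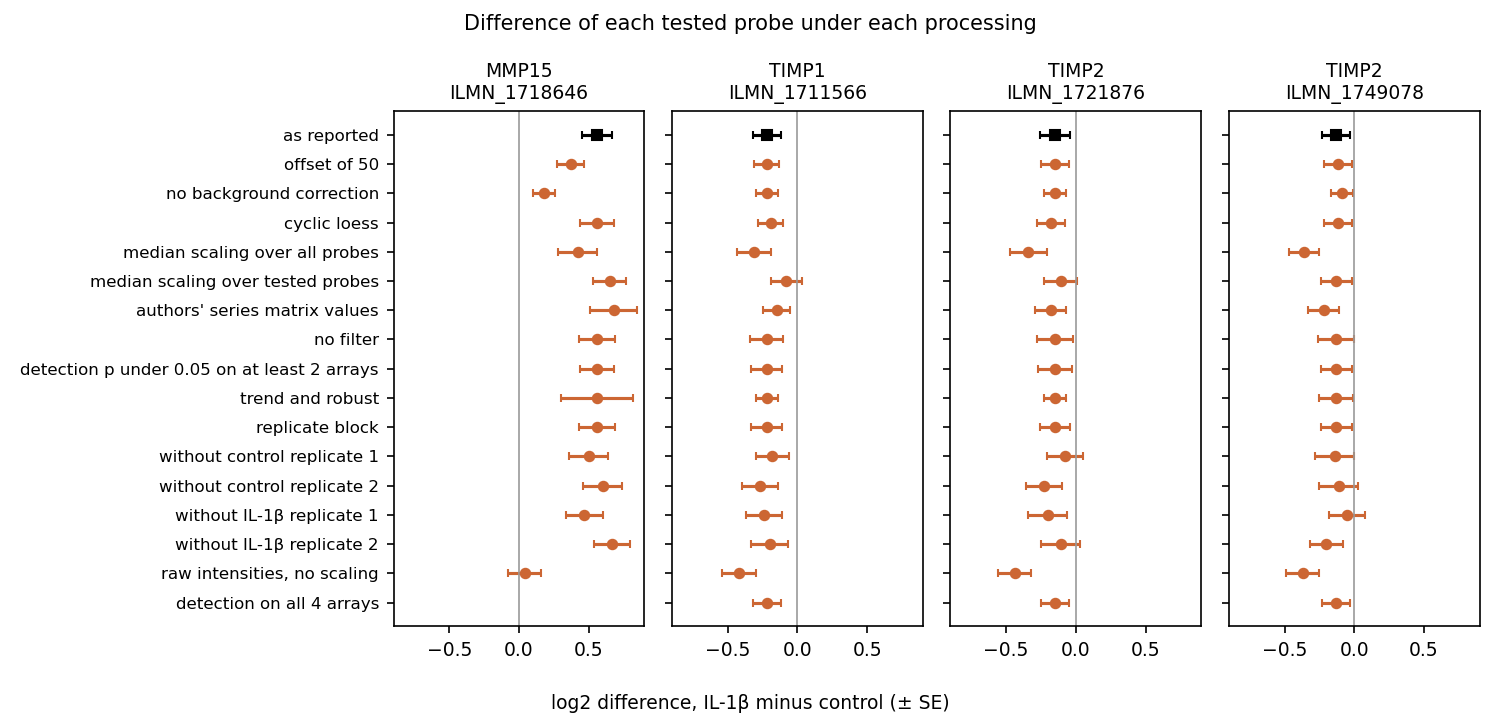
The log2 difference (IL-1β minus control) of each tested probe, with its SE as a bar, as reported (black square) and under each alternative (orange circles); MMP15 could not be tested where detection on all 4 arrays was required. TIMP1 and TIMP2 stay to the left of 0 and MMP15 to the right, and MMP15 is at 0.18 without background correction and at 0.04 in the raw intensities.

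By the distance between log2 values centred on their mean over the 4 arrays, the genes whose pattern was most like that of MMP15 were CRYGS, INPP5B and LGALS3BP, at Euclidean distances of 0.042, 0.047 and 0.053 among 11231 probes of other named genes. Their log2 differences were 0.52, 0.58 and 0.52. Each of them was thus higher on both IL-1β arrays, and with 4 arrays the likeness covers little more than that.

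Of 16 further genes of the family on the array (15 MMPs and TIMP4), 2 passed the filter for testing, beside 8862 of all 18665 named genes. MMP11, stromelysin 3, had raw intensities of 415 and 438 in the controls and 440 and 428 with IL-1β, which overlapped. After normalization it was higher on both IL-1β arrays, with a log2 difference of 0.42 ± 0.10 and adjusted p = 0.144 in limma. In the raw intensities the difference was 0.02, beside -0.25 for the median of all tested probes. The authors' deposited score table gives MMP11 a score of 14.1. MMP23B differed by -0.03 ± 0.09.

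Of 18 ADAM and ADAMTS genes on the array, proteases related to MMPs some of which TIMP3 blocks, 4 were tested and 0 passed an adjusted p of 0.05. ADAM17, the sheddase that releases TNF, differed by -0.17 ± 0.09 at its brightest probe, with its other tested probes at 0.23 and -0.19. ADAM15 differed by 0.10 ± 0.11 at its brightest probe, with its other tested probes at 0.09, -0.14 and 0.35. ADAM9 differed by 0.01 ± 0.11, and the signs of ADAM15 and ADAM9 turned with median scaling over all probes. The median over the 4 was 0.01, beside 0.001 over all genes tested.

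Of 16 activators, inducers and other inhibitors of MMPs on the array, 6 were tested and 0 passed an adjusted p of 0.05, with 4 higher, 2 lower and a median of 0.23. The groups did not overlap for all 6, which holds for 51.4% of all tested genes. LCN2, a secreted protein that forms a complex with MMP9, stood at 11.81 and 11.97 in the controls and 12.73 and 12.69 with IL-1β on the log2 scale. Its difference of 0.82 ± 0.10 (adjusted p = 0.0786 in limma) was the largest of the list. PCSK7, a proprotein convertase, differed by 0.33 ± 0.12, and BSG, known as an inducer of MMPs, by 0.27 ± 0.15. In the raw intensities they were at -0.04 and -0.05, while the median tested probe stood at -0.25. FURIN, the convertase that activates membrane-type MMPs, and RECK, a membrane-anchored inhibitor of MMPs, were not detected on any array.

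Of 17 transcription factors known at MMP promoters, 14 were tested and 0 passed an adjusted p of 0.05. At an unadjusted p under 0.05, 3 were higher and 3 lower, beside 17.8% of all tested genes, and the median of the list was 0.04. ETV4, an Ets factor of the PEA3 group, was at 7.63 and 7.57 in the controls and 8.01 and 8.10 with IL-1β, a difference of 0.46 ± 0.10 (adjusted p = 0.125 in limma). NFKB2 differed by 0.41 ± 0.10 and NFKB1 by -0.39 ± 0.10. ETS2 differed by 0.32 ± 0.10. In the raw intensities, in which the median tested probe stood at -0.25, ETV4 was at 0.03, NFKB2 at 0.01, ETS2 at -0.05 and NFKB1 at -0.69. ETS1 differed by -0.30 ± 0.09. The tested AP-1 subunits went both ways, with JUN at -0.28 ± 0.10 and FOSL1 at -0.22 ± 0.09. JUNB was at 0.24 ± 0.16, JUND at 0.06 ± 0.09 and FOSB at 0.02 ± 0.11, and FOS was detected on fewer than 2 arrays.

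**Figure D5:**
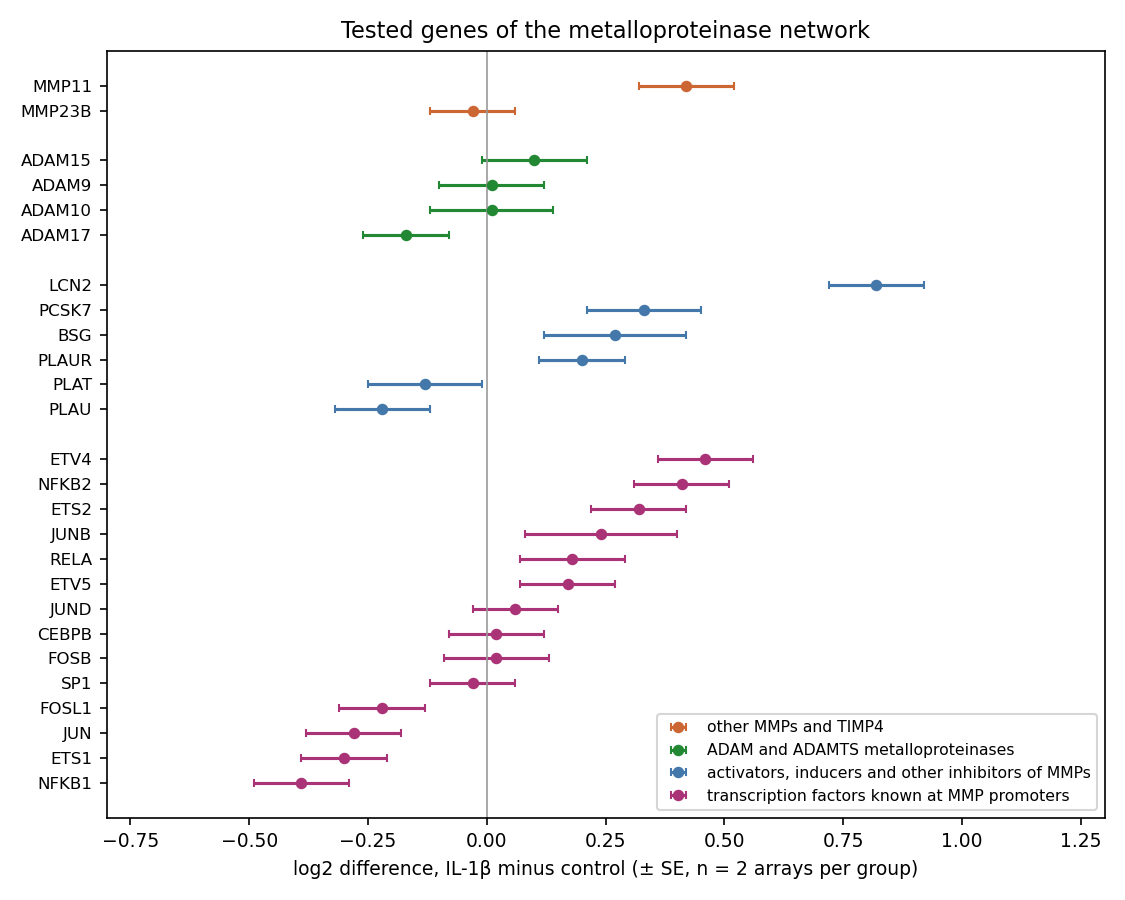
The log2 difference (IL-1β minus control) of the tested genes of 4 lists of related genes, each read by its brightest tested probe, with the SE as a bar (2 arrays per group). LCN2 lies farthest to the right at 0.82 and NFKB1 farthest to the left at -0.39, and none of the 26 genes passed an adjusted p of 0.05.

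All samples were of the same line, and marker genes of other cell types were checked because fibroblasts and leukocytes also make TIMPs and MMPs. Of 8 fibroblast markers, COL1A2 and PDGFRA were tested, and COL1A1, COL3A1, LUM, DCN, PDGFRB and THY1 were not detected on any array. COL1A2 differed by -0.24 ± 0.10, in the direction of TIMP1, with its other tested probe at -0.31. PDGFRA differed by 0.20 ± 0.13, against that direction. The summed raw intensity of the fibroblast list was 7538 and 8126 in the controls and 6147 and 5628 with IL-1β, in raw values whose median over all tested probes was lower by the amount given above. Of 7 leukocyte markers on the array, CD68 and CD14 were tested, and PTPRC, the common leukocyte antigen, was not detected on any array. CD68 differed by 0.31 ± 0.10, against the direction of TIMP1, with its other tested probes at 0.16 and 0.51, and CD14 by -0.08 ± 0.16. The summed raw intensity of the leukocyte list was 5944 and 6409 in the controls and 6119 and 5673 with IL-1β. Of 4 endothelial markers, CDH5 was detected on every array and differed by -0.01 ± 0.11, while PECAM1, VWF and KDR did not pass the filter. At their brightest tested probes, the line's own keratins differed by about as much as TIMP1, with KRT8 at -0.21 ± 0.11, KRT18 at -0.24 ± 0.10 and KRT19 at -0.20 ± 0.12. The other tested probe of KRT18 was at -0.14 ± 0.12, and VIM was at 0.00 ± 0.09. In limma no marker reached an adjusted p of 0.05, and their part in the TIMP1 difference was not tested.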

How the data were processed

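Per the labels, total RNA was labelled as biotinylated cRNA and hybridised to Illumina WG-6 v3 bead chips, 1 array per sample. The deposited raw file gives linear intensities, not background-subtracted, each with a detection p-value, per the file headers. For the series matrix, the authors took a constant off each array's deposited intensities and multiplied by a factor, which gives every array a mean of 322, as read from the values. The authors' deposited score table holds a signed score per gene. Scanner software: not given in the sources used here.

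The function neqc (limma 3.58.1, R 4.3.3) corrected the background from the detection p-values with an offset of 16, applied quantile normalization and took log2. Testing covered probes with a detection p under 0.01 on 2 or more arrays, with lmFit and eBayes, two-sided, with Benjamini-Hochberg adjustment over all of them and a threshold of 0.05. Log2 differences had a median SE of 0.111 (5.52 degrees of freedom). The number of arrays limits the precision. The fit was tested on simulated data.

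The members and lists were chosen with earlier results of these data known. The rule for named genes took every member probe, the leading genes of each list by size of difference at the brightest tested probe, and the 3 patterns nearest to the member with the largest difference. Further list genes were named after their values were seen. Alternatives varied background correction, scaling, filter and variance model, blocked on replicate number, or dropped single arrays.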

Additional observations from a re-analysis of the deposited data

How the results depend on the processing

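The count of member probes past an adjusted p of 0.05 in limma was 0 as reported and 0 under every other setting except the raw intensities, and over all tested probes it was 0 as reported, with 2437 at an unadjusted p under 0.05. The count over all probes was 91 with an offset of 50, 624 with no background correction, 728 with trend and robust settings, 66 with detection on all 4 arrays, 919 with median scaling over all probes (58 higher, 861 lower) and 10 with median scaling over tested probes. In the raw intensities with no scaling, a setting added after seeing the data, 5957 probes were called (33 higher, 5924 lower), 3 of them of TIMP1 and TIMP2, while the median of all tested probes stood at -0.25. Cyclic loess, the authors' series matrix values, no filter, a detection p under 0.05 and the replicate block each gave 0 calls. The same replicate numbers are not stated to mark a shared batch, and arrays with the same number had deviations that correlated at -0.087. With the replicate block TIMP1 had a log2 difference of -0.22 ± 0.11 and MMP15 of 0.56 ± 0.13. Leaving out each array in turn gave 0 member probes and 0 probes in all, where the lone array of a group is assumed to vary like the other group. TIMP1 then lay between -0.27 and -0.18 and MMP15 between 0.47 and 0.67. The TIMP2 probe ILMN_1749078 was at -0.05 without IL-1β replicate 1, and ILMN_1721876 at -0.08 without control replicate 1. Signal over background limits the 7 MMPs among the members. The MMP15 probe lay near the lowest detected signal, and the probes of the other 6 lay below it, at background.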
